A study of Mus musculus with 16 samples.

Results

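The transforming growth factor beta (TGF-beta) ligands, their receptors, the latent TGF-beta binding proteins and the Smad corepressor SKI-like were followed across 4 groups of mouse cells: embryonic fibroblasts (MEF), cells at an intermediate step of their reprogramming (OKM), pluripotent stem cells made by induction (iPS), and stem cells of the embryo (ES). The genes were taken by symbol, as every probe of the array that carries Tgfb1, Tgfb2, Tgfb3, Tgfbr1, Tgfbr2, Tgfbr3, Ltbp1, Ltbp2, Ltbp3 or Skil. They are 10 of the 16590 genes on the array. Of their 22 probes, 12 were kept, meaning that 4 or more of the 16 arrays read the probe above their negative controls (detection p-value under 0.01). These probes measure 9 of the 10 genes. The exception was Ltbp2, whose only probe was detected on 0 of 16 arrays.

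The study profiled total RNA on Illumina bead arrays, with 4 arrays a group, each from a separate dish according to the design text. MEF, OKM and iPS cells were of mouse strain CD1 and ES cells of strain 129. ES, iPS and OKM cells shared a medium with 15% serum and with leukemia inhibitory factor (LIF) at 10 ng/ml, and grew on mitomycin C-treated primary MEF, which remain in the dish as a feeder layer. MEF were kept without feeders in medium with 10% serum. Sample titles mark OKM dishes as 3F, iPS dishes as 3F-SOX2 and ES dishes as R26. The sources used here do not say whether the dishes of a group came from 1 line or clone, so the p-values measure the spread between dishes. Strain differs between ES and the other groups, and serum, LIF and feeders differ between MEF and the other groups, so these cannot be told apart from cell type in those comparisons.

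TGF-beta is secreted in a latent form, in which its own propeptide wraps the mature dimer and a latent TGF-beta binding protein ties the complex to the extracellular matrix. Once released, the ligand binds the type II receptor (Tgfbr2), which phosphorylates the type I receptor (Tgfbr1), and this in turn phosphorylates Smad2 and Smad3. Tgfbr3 (betaglycan) is a co-receptor that presents ligand, and Skil (SnoN) binds the Smads and represses their target genes. In fibroblasts the pathway drives matrix and contractile genes, and inhibitors of the type I receptor are widely used as an aid to reprogramming.

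Promoter sequences from RefSeq (GRCm38.p6), running from 250 bases before to 50 bases after the transcription start, were on hand for 7 of the 10 genes, in 9 windows. Those of 4 genes are printed because their patterns of level differ most: Tgfb1, with the smallest spread of group means among the 9 genes; Tgfb2, which dropped below detection in iPS and ES; Tgfbr2, the member that differed most between iPS and ES; and Ltbp1, whose mean was highest in OKM. Capitals mark matches, on either strand, to the motifs named after the sequences. The windows are chr7:25686752-25687051 on the plus strand for Tgfb1, chr1:186705940-186706239 on the minus strand for Tgfb2, chr9:116175314-116175613 on the minus strand for Tgfbr2 and chr17:75005279-75005578 on the plus strand for the upstream start of Ltbp1.
Tgfb1: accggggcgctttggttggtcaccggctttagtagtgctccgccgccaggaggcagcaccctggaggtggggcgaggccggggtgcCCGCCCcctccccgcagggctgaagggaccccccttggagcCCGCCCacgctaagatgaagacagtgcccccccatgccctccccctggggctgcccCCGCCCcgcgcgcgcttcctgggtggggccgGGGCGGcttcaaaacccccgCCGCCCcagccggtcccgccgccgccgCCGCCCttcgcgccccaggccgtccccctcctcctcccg
Tgfb2: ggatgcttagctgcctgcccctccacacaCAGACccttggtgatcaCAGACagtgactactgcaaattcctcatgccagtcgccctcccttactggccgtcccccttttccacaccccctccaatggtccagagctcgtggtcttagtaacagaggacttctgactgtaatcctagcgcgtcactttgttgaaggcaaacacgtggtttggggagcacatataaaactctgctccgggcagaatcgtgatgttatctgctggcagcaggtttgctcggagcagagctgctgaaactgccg
Tgfbr2: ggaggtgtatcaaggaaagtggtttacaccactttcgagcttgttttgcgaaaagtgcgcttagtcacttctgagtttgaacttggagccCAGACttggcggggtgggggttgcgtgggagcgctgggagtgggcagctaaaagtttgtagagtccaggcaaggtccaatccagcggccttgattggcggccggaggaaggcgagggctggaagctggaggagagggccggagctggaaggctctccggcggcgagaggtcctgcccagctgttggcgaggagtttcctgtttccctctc
Ltbp1: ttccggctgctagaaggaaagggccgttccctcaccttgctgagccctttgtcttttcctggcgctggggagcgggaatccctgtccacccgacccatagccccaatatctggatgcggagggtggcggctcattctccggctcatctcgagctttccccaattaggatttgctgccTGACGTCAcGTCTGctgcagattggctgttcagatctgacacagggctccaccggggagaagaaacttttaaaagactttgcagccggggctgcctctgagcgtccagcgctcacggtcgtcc
The motifs searched were the GC box GGGCGG bound by Sp1-type factors, the Smad element CAGAC, the AP-1 element TGANTCA, the cyclic AMP response element TGACGTCA and the octamer ATGCAAAT. The Tgfb1 window was 77.0% G and C, against a median of 52.7% over all 32851 promoters, and held 6 GC boxes and no Smad element. The Tgfb2 window held 2 Smad elements, that of Tgfbr2 held 1, and that of Ltbp1 held a cyclic AMP response element with a Smad element beside it, read as GTCTG on the printed strand. Over the 9 windows, a Smad element stood in 7 (49.6% of all promoters hold one), a GC box in 3 (35.7% of all), an AP-1 element in 1 (7.81% of all), the cyclic AMP response element in 1 (1.79% of all) and the octamer in 0 (1.74% of all). The AP-1 element, in the Ltbp3 window, overlaps a Smad element there. These matches describe letters in the windows and show no binding.

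Levels are log2 intensities after background correction and quantile normalization. A gene was called changed where limma's adjusted p was under 0.05 over 9455 genes and the difference was at least 2-fold. Where a group was detected on 0 of 4 arrays, only a bound is given, as "at least" a fold. The median raw intensity ran from 114.7 to 134.2, and arrays of a group correlated at 0.984 to 0.996. The cell labels were checked against marker genes. The summed linear level of 16 fibroblast markers was 122712 to 134670 in MEF, 21991 to 24863 in OKM, 17557 to 20748 in iPS and 3747 to 10606 in ES. That of 9 pluripotency markers was 99 to 152 in MEF, where none was detected, 4440 to 4728 in OKM, 98223 to 99692 in iPS and 123682 to 130309 in ES. Esrrb and Utf1, of the 9, were detected on no OKM array, Nanog on 1 of 4 and Fgf4 on 3 of 4. Highest among the 9 in OKM were Pou5f1, at a mean of 11.59, and Sall4 at 9.95. Markers of macrophages were present in the MEF dishes, where all 8 tested were detected on every array, with a summed level of 15595 to 16433. The sum was 867 to 1300 in OKM, 817 to 990 in iPS and 2490 to 4463 in ES. Adgre1, C1qa, C1qb and C1qc were detected on no array of OKM, iPS or ES. The highest marker in ES was Lyz2, at a mean of 11.65, against 9.24 in OKM and 9.04 in iPS. ES replicate 5 stood apart with the fibroblast sum of 3747, against 9852 to 10606 in the other 3 ES dishes, and each count of calls between ES and another group is also given without it.

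**Figure D1:**
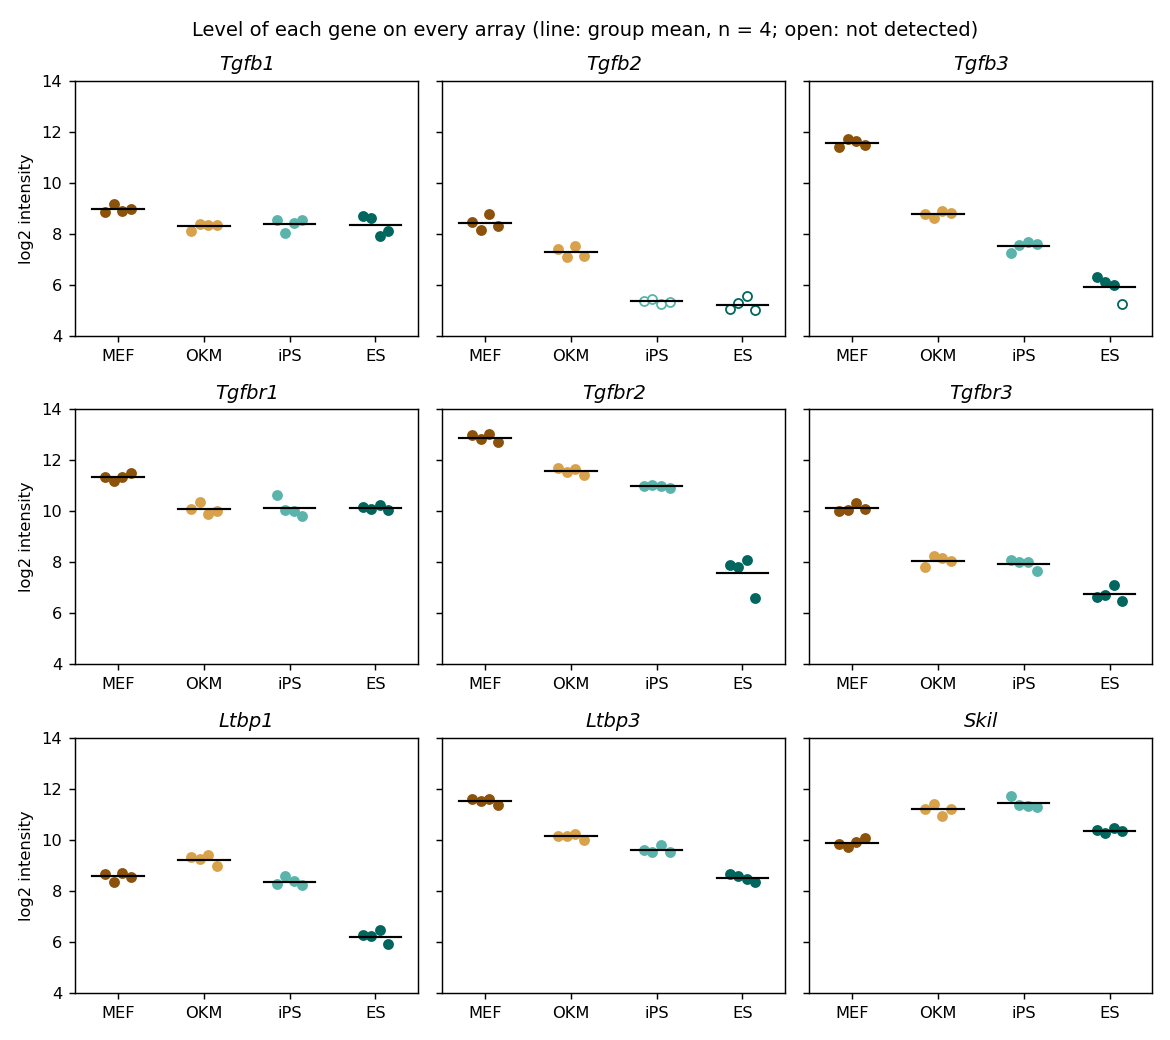
Log2 level (vertical axis) of the 9 detected genes, 1 panel a gene, in MEF, OKM, iPS and ES. Points are arrays, open where not detected, and lines are group means (n = 4). Tgfb3 is highest in MEF, lower in OKM, lower again in iPS and lowest in ES. The brighter Tgfbr2 probe is lowest in ES, Ltbp1 has its highest mean in OKM and Skil is lowest in MEF.

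All 3 ligands had their highest mean in MEF, but the size of the difference was unlike among them. Tgfb3 was 11.42, 11.73, 11.66 and 11.48 in the 4 MEF arrays, 8.77, 8.64, 8.90 and 8.81 in OKM, 7.27, 7.56, 7.70 and 7.62 in iPS, and 6.30, 6.13, 5.99 and 5.24 in ES. The 4 groups did not overlap anywhere, and the lowest ES array, replicate 5, was the only 1 of the 16 in which Tgfb3 was not detected. Tgfb3 fell in OKM against MEF (log2 change -2.79, SE 0.17, adjusted p = 9.07e-11), which is 6.93-fold lower. It fell further in iPS against OKM (-1.24, SE 0.17, adjusted p = 9.98e-06). It remained higher in iPS than in ES, by 1.63 (SE 0.17, adjusted p = 3.14e-07), and by 1.40 (adjusted p = 2.83e-08) without ES replicate 5.

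Tgfb2 was detected on every array of MEF and OKM and on none of iPS or ES. Its levels were 8.48, 8.17, 8.78 and 8.33 in MEF, 7.41, 7.09, 7.51 and 7.13 in OKM, 5.38, 5.46, 5.26 and 5.35 in iPS, and 5.04, 5.31, 5.55 and 5.02 in ES, with detection on 0 of 4 arrays in iPS and 0 of 4 in ES. OKM arrays all lay below MEF arrays, and the pluripotent arrays overlapped each other short of the detection limit of 0.01. Their detection p-values were 0.01378 to 0.04511 in iPS and 0.01629 to 0.10025 in ES, so a weak signal there was not excluded. Tgfb2 fell in OKM against MEF by 1.15 on the log2 scale (SE 0.14, adjusted p = 1.12e-06, 2.23-fold lower). In iPS it was at least 3.36-fold lower than in OKM (adjusted p = 4.7e-09), and in ES at least 6.84-fold lower than in MEF (adjusted p = 6.3e-13). The ES to MEF difference was called without ES replicate 5 as well (adjusted p = 4.58e-12). No fold is given between iPS and ES, since neither was detected.

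Tgfb1, the ligand best known from platelets and immune cells, moved least. It was 8.86, 9.18, 8.91 and 8.98 in MEF, 8.13, 8.41, 8.34 and 8.36 in OKM, 8.56, 8.04, 8.44 and 8.55 in iPS, and 8.69, 8.63, 7.93 and 8.12 in ES. Every MEF array lay above every array of the other groups, and those other groups overlapped one another. The difference of OKM from MEF was -0.67 (95% interval -1 to -0.34, adjusted p = 0.00106), which is under 2-fold and was not called. That of iPS from OKM was 0.08 (95% interval -0.25 to 0.42, adjusted p = 0.683), and that of iPS from ES 0.06 (95% interval -0.28 to 0.39, adjusted p = 0.78), or -0.02 without ES replicate 5.

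Among the receptors, the type II receptor Tgfbr2 separated iPS from ES most. Its brighter probe read 12.99, 12.83, 13.02 and 12.72 in MEF, 11.70, 11.56, 11.66 and 11.45 in OKM, 10.98, 11.05, 10.99 and 10.92 in iPS, and 7.90, 7.81, 8.11 and 6.59 in ES. No group overlapped another, and again ES replicate 5 was the lowest array. Tgfbr2 was 10.4-fold higher in iPS than in ES (log2 3.38, SE 0.22, adjusted p = 6.89e-10), and 3.05 higher on the log2 scale without ES replicate 5 (adjusted p = 2.61e-13). The difference of OKM from MEF was -1.30 (SE 0.22, adjusted p = 4.65e-05), and that of iPS from OKM was -0.61 (95% interval -1.07 to -0.14, adjusted p = 0.028), which was not called.

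The dimmer Tgfbr2 probe placed the loss at another step. It read 7.97, 8.16, 8.05 and 8.16 in MEF, 8.26, 8.19, 8.16 and 7.93 in OKM, 6.17, 5.97, 6.24 and 6.19 in iPS, and 4.87, 5.44, 4.87 and 4.74 in ES, where it was detected on 0 of 4 arrays. MEF and OKM overlapped on this probe, and all iPS arrays lay below both. Its change in OKM against MEF was 0.05 (adjusted p = 0.747 in limma over 12992 probes), and in iPS against OKM it fell by 1.99 (adjusted p = 8.75e-10). Both probes were higher in iPS than in ES, the dimmer by at least 1.39-fold. Whether MEF and OKM differ in Tgfbr2 therefore depends on the probe, and the transcripts that each probe reads were not compared here.

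**Figure D2:**
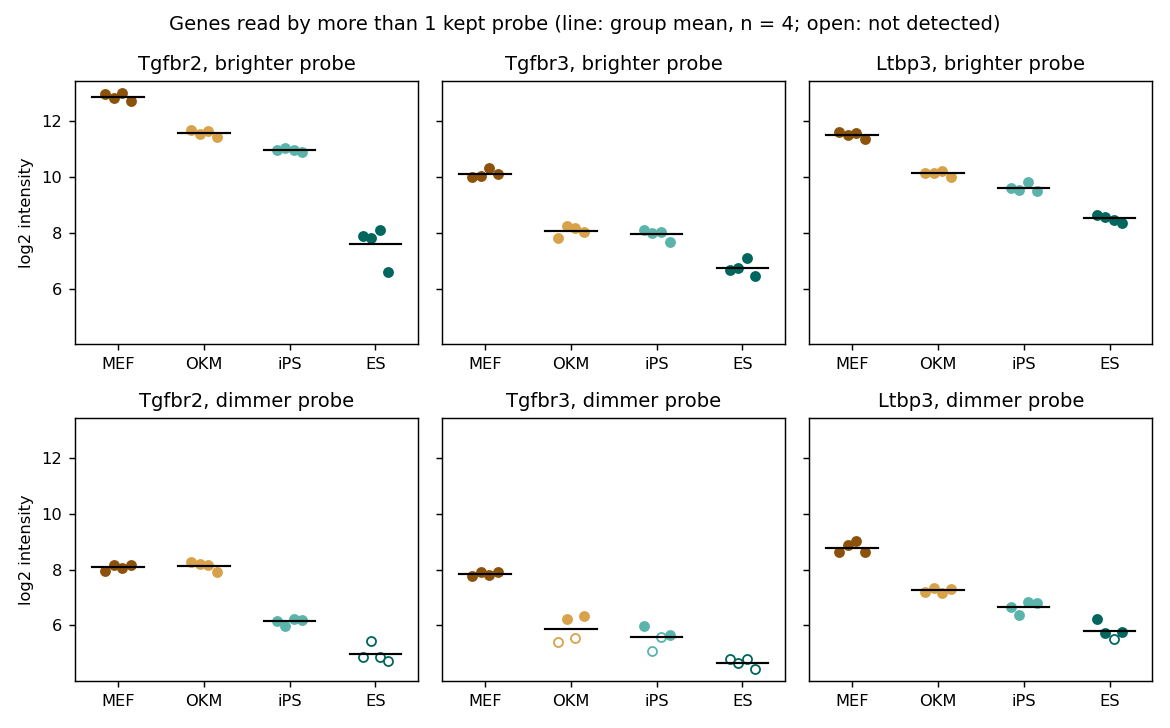
Log2 level by array of both kept probes of Tgfbr2, Tgfbr3 and Ltbp3 in MEF, OKM, iPS and ES (n = 4 arrays a group). The dimmer Tgfbr2 probe is level between OKM and MEF, at means of 8.14 in OKM and 8.08 in MEF, while both probes of the other 2 genes drop there.

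Tgfbr1, the type I receptor kinase, was set apart in MEF and nearly level elsewhere. The kept 1 of its 4 probes read 11.34, 11.18, 11.37 and 11.49 in MEF, 10.11, 10.36, 9.89 and 10.00 in OKM, 10.66, 10.06, 10.02 and 9.81 in iPS, and 10.16, 10.09, 10.26 and 10.05 in ES. MEF arrays were all higher than the rest, and the other 3 groups overlapped. Tgfbr1 fell in OKM against MEF by 1.25 on the log2 scale (SE 0.15, adjusted p = 6.84e-07, 2.38-fold lower). The further differences were 0.04 for iPS from OKM (95% interval -0.27 to 0.36, adjusted p = 0.823) and -0.01 for iPS from ES (95% interval -0.32 to 0.31, adjusted p = 0.977), or -0.04 without ES replicate 5.

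Tgfbr3, the co-receptor, was lower in OKM than in MEF and higher in iPS than in ES. It was 10.00, 10.04, 10.34 and 10.10 in MEF, 7.81, 8.24, 8.19 and 8.04 in OKM, 8.10, 8.01, 8.03 and 7.66 in iPS, and 6.66, 6.74, 7.12 and 6.47 in ES. OKM and iPS overlapped, while MEF lay above them and ES below. Tgfbr3 was 4.14-fold lower in OKM than in MEF (log2 change -2.05, SE 0.14, adjusted p = 3.91e-10), and 2.30-fold higher in iPS than in ES (1.2, SE 0.14, adjusted p = 9.93e-07). The iPS to OKM difference was -0.12 (95% interval -0.42 to 0.18, adjusted p = 0.496). Its dimmer probe fell by 1.97 in OKM against MEF (adjusted p = 7.13e-08 in limma over 12992 probes) and differed by 0.91 between iPS and ES (adjusted p = 0.000666), under the 2-fold limit.

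The latent TGF-beta binding proteins did not move as a family. Ltbp3, which assists secretion of the latent complex, was 11.61, 11.53, 11.59 and 11.36 in MEF, 10.15, 10.16, 10.24 and 10.01 in OKM, 9.61, 9.54, 9.82 and 9.52 in iPS, and 8.66, 8.59, 8.47 and 8.36 in ES. The 4 groups lay in separate ranges, each lower than the last. Ltbp3 fell in OKM against MEF (-1.39, SE 0.10, adjusted p = 5.41e-10, 2.61-fold lower) and was higher in iPS than in ES by 1.10 (SE 0.10, adjusted p = 3.04e-08). Its iPS to OKM difference of -0.52 (SE 0.10, adjusted p = 0.000237) was under 2-fold. The dimmer Ltbp3 probe differed by 0.87 between iPS and ES (adjusted p = 4.2e-05 in limma over 12992 probes) and was not called there.

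Ltbp1, the family member that tethers latent TGF-beta to fibrillin-rich matrix, followed another course. The kept 1 of its 6 probes read 8.67, 8.35, 8.72 and 8.53 in MEF, 9.33, 9.24, 9.39 and 8.96 in OKM, 8.29, 8.57, 8.38 and 8.23 in iPS, and 6.26, 6.22, 6.45 and 5.92 in ES. OKM lay above every other group, MEF and iPS overlapped, and ES lay far below. Ltbp1 was 4.46-fold higher in iPS than in ES (log2 2.16, SE 0.13, adjusted p = 1.78e-10), and 2.06 higher on the log2 scale without ES replicate 5. It was 0.66 higher in OKM than in MEF (95% interval 0.39 to 0.93, adjusted p = 0.000157) and 0.86 lower in iPS than in OKM (-0.86, SE 0.13, adjusted p = 1.99e-05), each under 2-fold and so not called. The Ltbp2 probe stayed between 4.51 and 5.57 on all 16 arrays and missed the detection limit on each, with a lowest detection p-value of 0.01128.

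Skil was the only 1 of the 9 genes called higher in OKM than in MEF. The kept 1 of its 2 probes read 9.84, 9.74, 9.92 and 10.07 in MEF, 11.21, 11.42, 10.94 and 11.23 in OKM, 11.72, 11.36, 11.33 and 11.31 in iPS, and 10.40, 10.27, 10.45 and 10.36 in ES. Its other probe was detected on 0 of 16 arrays, at 4.38 to 4.7. On the kept probe the groups stood as follows. OKM and iPS overlapped and were the high groups, ES lay between, and MEF lay lowest. Skil was 2.48-fold higher in OKM than in MEF (log2 1.31, SE 0.12, adjusted p = 1.33e-08), and 2.09-fold higher in iPS than in ES (1.06, SE 0.12, adjusted p = 4.28e-07). Without iPS replicate 1, its highest array, the difference of iPS from ES was 0.97 (adjusted p = 1.49e-06), just under 2-fold. The difference of ES from MEF was 0.48 (adjusted p = 0.001), which was not called.

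**Figure D3:**
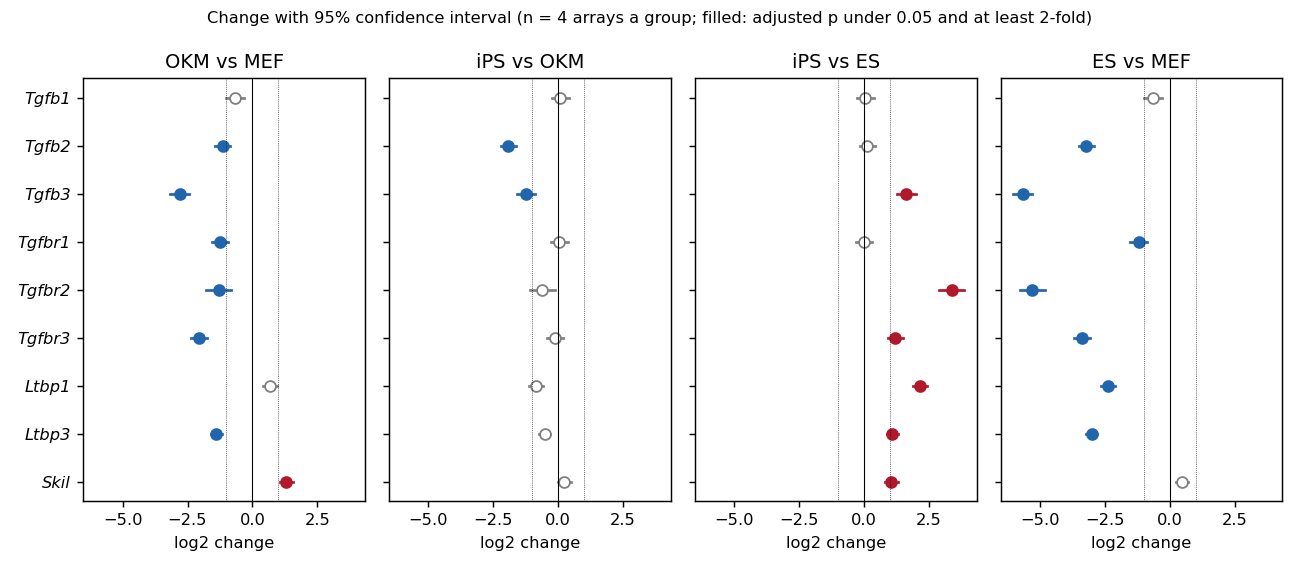
Log2 change with 95% interval of the 9 genes (vertical axis) in each comparison, from limma over all 16 arrays. Tgfb3 has the lowest value in OKM against MEF at -2.79, Tgfbr2 the highest in iPS against ES at 3.38, and Skil lies opposite to most genes in OKM against MEF.

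Set side by side, more of the 9 genes were called in OKM against MEF than in iPS against OKM. Serum, LIF and feeders differ between the groups of the former comparison and are shared in the latter. In OKM against MEF, 1 gene was higher and 6 were lower of the 9, where 31.9% of all genes were called (16.1% higher, 15.8% lower). For each of the 9 the OKM and MEF arrays did not overlap, a state that 68.9% of all genes shared. The median change of the 9 was -1.25, against 0.02 over all genes. Between the same groups, all 16 fibroblast markers and all 8 macrophage markers fell, at medians of -3.13 and -3.72. Smooth muscle markers fell in 6 of 8 and rose in 0. What part RNA of these cell types takes in the calls was not tested. In iPS against OKM, 0 were higher and 2 lower, Tgfb2 and Tgfb3, where 13.2% of all genes were called (7.28% higher, 5.94% lower), and 2 calls among 9 genes are too few to set apart from that share. In that comparison 5 of the 9 did not overlap, against 50.3% of all genes, and the median was -0.52 against -0.02. With no background correction, 0 of the 9 were called in iPS against OKM.

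The pluripotent groups differed from each other in most of these genes. In iPS against ES, 6 of the 9 were called higher and 0 lower, namely Tgfb3, Tgfbr2, Tgfbr3, Ltbp1, Ltbp3 and Skil, where 18.5% of all genes were called (11.2% higher, 7.28% lower). The same 6 had groups that did not overlap, a state that 50.6% of all genes shared. Their median, over the 9, was 1.10, against -0.04 over all genes. The count was 6 without ES replicate 5 as well, with Tgfbr3 at 1.11, Ltbp3 at 1.05 and Skil at 1.06, and it was 3 with no background correction. Those dishes also differed in fibroblast markers, of which 4 of 16 were higher and 0 lower in iPS than in ES (3 of 16 without ES replicate 5), and the summed level was 17557 to 20748 in iPS and 3747 to 10606 in ES. Col1a2, Col3a1 and Fap were detected on no array of either group. Of 8 markers of smooth muscle and pericytes, 3 were higher and 0 lower in iPS than in ES, also without ES replicate 5. The median over the 8 was 0.28. Des had means of 8.03 in iPS and 8.15 in ES, and Cspg4 of 6.53 and 6.69. The summed level of the 8 was 16287 to 17404 in iPS and 4414 to 7056 in ES. Their sum was 25818 to 29628 in OKM and 62986 to 71927 in MEF, and Myh11 and Lmod1 were detected in MEF alone. Of 9 epithelial markers, 4 were higher and 1 lower in iPS than in ES (4 and 0 without ES replicate 5). Their summed level was 10014 to 11484 in iPS and 7367 to 9735 in ES. Both groups grew on feeders, and the part that feeder RNA, or RNA of these cell types, takes in the differences was not tested. In such bulk RNA, fewer cells of a type and less RNA per cell cannot be told apart.

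Most of the set was lower in both pluripotent groups than in fibroblasts. In ES against MEF, 0 of the 9 were called higher and 7 lower, where 48.5% of all genes were called (24.2% higher, 24.3% lower), and the median was -3.01. All 9 had groups that did not overlap, as did 76% of all genes. Tgfb3 was 50.6-fold lower in ES (log2 change -5.66, adjusted p = 3.77e-15), and Tgfbr2 39.0-fold lower (-5.29, adjusted p = 2.8e-13). Without ES replicate 5 the count was again 0 higher and 7 lower, with Tgfb3 43.3-fold lower and Tgfbr2 30.9-fold lower. In iPS against MEF, 1 was higher, Skil at 1.54 (adjusted p = 1.25e-09), and 6 were lower, where 36.5% of all genes were called (19% higher, 17.5% lower). The groups did not overlap for 8 of the 9, and for 71.4% of all genes. Ltbp1 differed there by -0.20 (95% interval -0.47 to 0.07, adjusted p = 0.162). Against MEF, all 16 fibroblast markers were lower in ES and in iPS, at medians of -4.1 and -3.28. Macrophage markers were lower in 8 of 8 in both groups, and smooth muscle markers in 7 of 8 with 0 higher. What part RNA of these cell types takes in the differences from MEF was not tested. In OKM against ES, 6 were higher and 0 lower, where 34.5% of all genes were called (18% higher, 16.5% lower). The groups did not overlap for 7 of the 9, and for 66.6% of all genes. Ltbp1 stood at 3.02 in that comparison (adjusted p = 5.61e-13), the second after Tgfbr2 at 3.99 (adjusted p = 2.5e-11). Without ES replicate 5, 6 were higher and 0 lower, with Ltbp1 at 2.92 and Tgfbr2 at 3.65. These comparisons share arrays with those above and are no independent repeat of them.

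The wider pathway was described by lists, whose counts are set beside the share of all genes called. Of 22 signal transducers and regulators tested, of 28 listed, 3 rose and 6 fell in OKM against MEF, with a median of -0.30, where 16.1% of all genes rose and 15.8% fell. Vasn, which traps TGF-beta outside the cell, fell by 2.41 on the log2 scale (adjusted p = 2.96e-12), and Fst, an activin antagonist, fell by 2.69 (adjusted p = 2.74e-09). Pmepa1, a feedback inhibitor that holds back Smad2 and Smad3, fell by 2.19 (adjusted p = 2.92e-10). Among the Smads, the inhibitory Smad6 fell by 1.5 (adjusted p = 6.72e-08) and Smad2 fell by 1.03 (adjusted p = 3.78e-06), while Smad4 differed by -0.20 (adjusted p = 0.0882) and Smad3 by -0.59 and were not called. The genes called higher were Tgif2 at 1.48 (adjusted p = 3.99e-08), which was detected on 1 of 4 MEF arrays, Nedd4l at 1.27 (adjusted p = 4.07e-10) and Cd109. Cd109, a co-receptor that restrains signalling, rose by 1.18 (adjusted p = 4.03e-05). In iPS against OKM 3 rose and 1 fell (7.28% and 5.94% of all genes), led by the ubiquitin ligase Smurf1 at 1.55 (adjusted p = 3.47e-08) and the corepressor Tgif1 at 1.37 (adjusted p = 4.87e-08). In iPS against ES 2 of the 22 were higher, no larger a share than the 11.2% of all genes, namely Cd109 at 5.05 (adjusted p = 6.56e-13) and the endocytic adaptor Dab2 at 2.47 (adjusted p = 5.83e-10), and both were called without ES replicate 5 (4.80 and 2.29).

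Of 21 genes of latency, storage and activation tested, of 30 listed, 3 rose and 15 fell in OKM against MEF, with a median of -1.52, where 16.1% of all genes rose and 15.8% fell. Thbs1, a secreted activator of latent TGF-beta, fell by 5.36 (adjusted p = 1.19e-14), Mfap2 of the microfibrils fell by 4.65 (adjusted p = 9e-15), and Fmod, a proteoglycan that binds the ligand, was at least 21.4-fold lower. Ltbp4, a further latent TGF-beta binding protein, rose by 1.43 (adjusted p = 2.78e-07), and with it the protease Mmp9 by 2.23 (adjusted p = 3.27e-11) and the crosslinking enzyme Tgm2 by 1.40 (adjusted p = 2.92e-09). In iPS against OKM 1 rose and 2 fell of the 21, a share near the 13.2% of all genes called. The riser was Nrros, which anchors latent TGF-beta on the cell surface, at 1.99 (adjusted p = 8.02e-10). In iPS against ES 9 were higher and 0 lower (11.2% and 7.28% of all genes), with Htra1 at 2.62 (adjusted p = 1.65e-12), Dcn at 1.90 (adjusted p = 3.23e-05) and Plau at 1.79 (adjusted p = 3.81e-08). Without ES replicate 5, 8 were higher and 0 lower. Dcn and Mfap5, which are 2 of the 21, are fibroblast markers as well.

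Of 24 TGF-beta responsive genes tested, of 30 listed and with Skil left out, 1 rose and 18 fell in OKM against MEF, with a median of -1.77, where 16.1% of all genes rose and 15.8% fell. Tagln, an actin-binding protein of contractile cells, fell by 4.34 (adjusted p = 1.56e-15), and the collagen genes Col3a1 and Col1a1 fell by 4.53 and 4.04. The 1 gene called higher was Id1, an inhibitor of helix-loop-helix factors, at 1.61 (adjusted p = 6.31e-10). Among the genes not called, Bhlhe40 (0.99), Cdkn1a (0.88), Junb (0.76) and Timp1 (0.60) were also higher in OKM. Each was under 2-fold, and its groups did not overlap. Zeb1, not called either, differed by -0.43. In iPS against OKM 0 rose and 6 fell (7.28% and 5.94% of all genes), with Tgfbi, a matrix protein named for its induction by TGF-beta, falling by 1.97 (adjusted p = 4.69e-09). In iPS against ES 9 were higher and 0 lower (11.2% and 7.28% of all genes), with Zeb1 at 1.67 (adjusted p = 1.06e-08), Acta2 at 1.5 (adjusted p = 1.03e-08) and Twist1 at 1.44 (adjusted p = 6.73e-08). Without ES replicate 5, 7 were higher and 0 lower. Col1a1, Col1a2 and Col3a1 are also among the fibroblast markers, all 16 of which fell in OKM against MEF. Acta2 and Tagln are among the smooth muscle markers, of which 0 of 8 rose and 6 fell. Macrophage markers fell there as well, 8 of 8, at a median of -3.72. What part any of these cell types takes in the changes was not tested.

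The activin and nodal branch, which signals through the same Smads from other receptors, had more genes called higher than lower in OKM against MEF. Of 9 genes tested, of 12 listed, 6 rose and 1 fell there, with a median of 1.36, where 16.1% of all genes rose and 15.8% fell. The receptor Acvr2b rose by 2.64 (adjusted p = 8.45e-14), the ligand Nodal was at least 3.32-fold higher and its co-receptor Tdgf1 at least 3.65-fold higher, while Inhba, a subunit of activin, fell by 1.21. In iPS against OKM 6 rose and 0 fell (7.28% and 5.94% of all genes), led by the nodal antagonists Lefty1, at least 55.0-fold higher, and Lefty2 at 5.62. In iPS against ES 1 was higher and 3 lower (11.2% and 7.28% of all genes), with Inhba at 1.19, Lefty1 at -1.80, Lefty2 at -1.22 and Gdf3 at -1.09. Without ES replicate 5, Inhba stood at 0.94 and was not called, while the same 3 were lower. Over the 9 the median in iPS against ES was -0.68, against 1.10 over the TGF-beta ligands, receptors, latency proteins and Skil. Pluripotency markers, 9 in number, moved in the same directions. Of these, 5 rose and 0 fell in OKM against MEF, and 9 rose in iPS against OKM. Between iPS and ES, 0 were higher in iPS and 3 lower, with a median of -0.5. What part this shift of cell state takes in the branch was not tested.

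**Figure D4:**
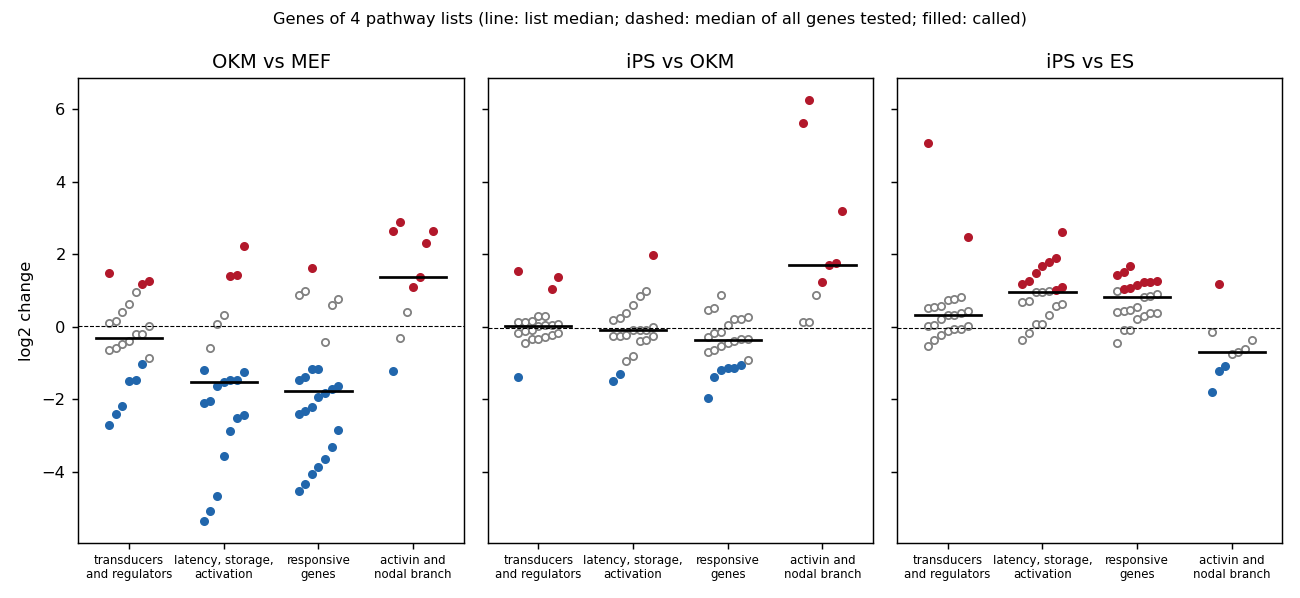
Log2 change of the tested genes of each pathway list (points) with the list median, by comparison. The latency and responsive lists lie mostly below 0 in OKM against MEF, at medians of -1.52 and -1.77, and the activin and nodal branch above it at 1.36.

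For each of the 9 genes, the genes with the most similar course over the 16 arrays were named by Pearson's r, as a description, since 4 group means shape every course. Tgfb3 ran closest to Fhl2, Sema5a and Lhfp, each at an r of 0.995, and Tgfb2 to Ctdsp2 at 0.991, Map2 at 0.983 and Fmo1 at 0.982. Tgfbr2 ran closest to Anxa5 at 0.997, Lgals1 at 0.996 and Timp3 at 0.996, and Tgfbr3 to Lbh at 0.997, Pbxip1 at 0.994 and Zbtb41 at 0.993. Ltbp3 ran closest to Upk1b at 0.996, 3830406C13Rik at 0.994 and Sema5a at 0.994, so Sema5a stood in the lists of both Tgfb3 and Ltbp3. Ltbp1, with its highest mean in OKM, ran closest to Zfhx3 at 0.993, Hoxd4 at 0.993 and Ly6c1 at 0.989. Skil ran closest to Adi1 at 0.976, Ppp2r3c at 0.975 and Iqgap2 at 0.971, and Tgfbr1 to Tcf4 at 0.974, Cask at 0.974 and Ptpro at 0.972. Tgfb1, with the smallest range, had the loosest companions, Ankfy1 at 0.927, Atg7 at 0.915 and Ralgds at 0.905.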

How the data were processed

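Total RNA of 16 mouse dishes was measured on Illumina bead arrays. For each of 25697 probes, the table analysed gives the mean intensity of its beads before normalization, and beside it a detection p-value, both per the file headers. The submitters' processing notes name GenomeStudio, whose version is not given in the sources used here. A second deposited table, an intensity table that the authors normalized, has medians of 24.8 to 25.1 and values down to -27.3, and served as an alternative. Its rank correlation with the same array was at least 0.999998. Symbols came from the platform annotation, and were brought up to date for 23962 probes through Entrez IDs and for 9 through accessions. Of all probes, 23978 had 1 symbol and 1719 none.

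In limma 3.58.1 (R 4.3.3), neqc corrected the background from the detection p-values, added an offset of 16, quantile-normalized and took log2. Probes detected (p-value under 0.01) on at least 4 arrays were kept, and the probe with the highest mean represented its gene, which gave 9455 genes. Group means were fitted over all 16 arrays (12 residual and 4.84 prior degrees of freedom) in 6 comparisons, two-sided, with Benjamini-Hochberg adjustment over all genes, and the script was tested on simulated data. Bounds compare the detected group's mean with the higher, per array, of the lowest detected signal and the probe's own. The number of arrays limits the precision.

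Groups came from the labels. The 10 genes and all lists were chosen with earlier results of these data known, so no count adjusted over a list is given. Named were all 10 genes, up to 3 called genes per list, direction and comparison with groups that did not overlap, list genes with a role in the text, and the 3 genes closest in course. Alternatives changed the offset, background correction, normalization, filter, probe choice, thresholds, array subset and replicate block.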

Additional observations from a re-analysis of the deposited data

Results flagged for a closer look

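Of 48 sets of 4 arrays examined (each kept probe in each group), 1 held an array far from the other 3: Skil in iPS replicate 1, at 11.72 against 11.36 for the nearest array. The gap was 0.882 of the range of the group, above Dixon's 95% critical value for 4 arrays. Chance alone marks about 1 in 20 such sets. The call of Skil in iPS against ES rests in part on this array, since it was 0.97 without it and 1.06 with it.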

How the results depend on the processing

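Counts of the 9 genes called were 7 for OKM against MEF, 2 for iPS against OKM, 6 for iPS against ES, 7 for ES against MEF, 7 for iPS against MEF and 6 for OKM against ES. With no background correction, the count for iPS against OKM was 0 and that for iPS against ES was 3. By adjusted p alone the counts were 9, 5, 6, 9, 8 and 7 in the same order. At 1.5-fold the count for iPS against OKM was 4. At that limit Tgfb1 was also called in each comparison with MEF, Ltbp1 in OKM against MEF, and Skil in OKM against ES. Leaving out 1 array at a time gave 5 to 6 for iPS against ES, and no other count moved: 7 to 7, 2 to 2, 7 to 7, 7 to 7 and 6 to 6 for the others in the order above. The sign turned in 1 case: Tgfbr2 in OKM against MEF was 0.05 with the dimmer probe, chosen after seeing the data. With the mean of its probes it was -0.62 and not called, and iPS against OKM was then called at -1.30. Skil in iPS against ES was 0.97 in the last 8 arrays of the table and 0.92 with median scaling. Tgfbr3 in iPS against ES was 0.91 in those 8 arrays, 0.99 with an offset of 50 and 0.78 with no background correction. Tgfb3 in iPS against ES was 0.89 with no background correction. These causes were not tested. With the replicate number as a replicate block the counts were 7, 2, 6, 7, 7 and 6. Same-numbered dishes correlated above 0.1 in 4 of 21 pairs (range -0.424 to 0.55). Of these, 3 were among the 4 pairs of OKM and MEF (0.00787 to 0.55), so not every pair of any 2 groups did, and the numbers were not taken to pair the dishes. Single genes kept their direction and side of the threshold in 1277 cases, crossed it upward in 18 and downward in 18. Signal near background limits Tgfb2 in iPS and ES, and Ltbp2 everywhere.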
